A study of Mus musculus with 32 samples.

Results

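The interferon response was followed through 9 mouse genes chosen by symbol: the transcription factor genes Irf7, Irf9 and Stat2, and the effector and feedback genes Isg15, Ifit1, Ifit3, Oasl2, Bst2 and Usp18. Of these 9 genes, 5 had a row in at least 1 of the 5 expression tables and 3 (Irf9, Stat2 and Bst2) had a row in all 5, out of 17440 genes with a row in at least 1 table. The data are polyA RNA sequencing of 32 libraries of E14 mouse embryonic stem cells, in 16 groups of 2 libraries. In every line CTCF or RAD21 was fused to an auxin-inducible degron (AID), so that an added auxin sends that protein to the proteasome. No line without a degron is among these libraries, so an effect of the auxin itself, apart from protein loss, was not tested. Degradation is used below as a name for the auxin treatment of these lines, and the data hold no protein levels. CTCF is a DNA-binding protein that stops cohesin and so anchors chromatin loops, and RAD21 is a cohesin subunit.

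CTCF AID cells were untreated or had 500 uM indole-3-acetic acid (IAA) for 12 h or 24 h, and RAD21 AID cells were untreated or had 1 uM 5-Ph-IAA for 12 h or 24 h. A second set of CTCF AID cells, labelled as grown in serum, was untreated or had IAA for 12 h. CTCF AID cells without a stated IAA treatment carried a control hairpin or a hairpin against Chd4, which encodes the ATPase of the NuRD chromatin remodelling complex. CTCF AID cells that overexpressed a control, wild-type CTCF or mutated CTCF were kept without or with IAA, for 12 h where a time is given. The labels do not say which residues were mutated, whether the lines are single clones, or whether the 2 libraries of a group came from separate cultures. The p-values therefore measure only the spread between these libraries, which may be technical. The growth protocol states a serum-free medium with LIF for all samples, also for the 4 libraries labelled serum. The labels of 4 overexpression libraries conflict on IAA: 2 with mutated CTCF have it as their treatment but not in their titles, and 2 with wild-type CTCF have it in their titles but not as their treatment. Groups follow the titles.

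Interferons are secreted proteins that warn cells of viral infection. Type I interferon binds its receptor, the kinases JAK1 and TYK2 phosphorylate STAT proteins, and STAT2 joins IRF9 in a complex that binds the interferon-stimulated response element (ISRE) in the promoters of responsive genes. IRF7 amplifies the production of interferon itself. ISG15 is a ubiquitin-like protein attached to other proteins, and USP18 removes it and also dampens the receptor. IFIT1 and IFIT3 bind foreign RNA or its binding partners, OASL2 belongs to the oligoadenylate synthetase family, and BST2 (tetherin) holds budding virions at the cell surface. Pluripotent stem cells are known for a weak interferon response, with little interferon made and a muted reaction to it.

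The promoters show which of the 9 genes hold the element itself. RefSeq promoter windows on GRCm38.p6, running from 250 bases before each start site to 50 bases after it, were matched by symbol for 8 of the 9 genes (Usp18 was not matched). Searches ran on both strands. The ISRE core was taken as GAAA, any 2 bases and GAAA again, the gamma-activated site (GAS, the element of the type II response) as TTCNNNGAA, and a CTCF core as CC, any 3 bases, AGG, any base and GGC. An ISRE core lay in the window of 5 genes, against 3.99% of the 27025 genes with a window. The stretches that hold it are given below 5′ to 3′ in the direction of the gene, with the matched letters in capitals.
Isg15, chr4:156200855-156200916, minus strand: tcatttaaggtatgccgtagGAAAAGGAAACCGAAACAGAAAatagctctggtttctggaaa
Ifit1, chr19:34640765-34640833, plus strand: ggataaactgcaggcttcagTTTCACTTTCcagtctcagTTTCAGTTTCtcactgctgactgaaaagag
Ifit3, chr19:34583353-34583436, plus strand: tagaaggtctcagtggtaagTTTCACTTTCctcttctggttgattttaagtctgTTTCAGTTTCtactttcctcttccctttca
Bst2, chr8:71537567-71537622, minus strand: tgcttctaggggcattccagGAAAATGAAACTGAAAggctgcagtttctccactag
Stat2, chr10:128270256-128270305, plus strand: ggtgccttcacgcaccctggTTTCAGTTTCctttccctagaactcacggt

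Isg15 held 3 overlapping matches that start 78, 72 and 66 bases before the start site, and Bst2 held 2 overlapping ones that start 130 and 124 bases before it. Ifit1 held 2 separate matches, 104 and 85 bases before its start, and Ifit3 held 2, 156 and 122 bases before its start, all 4 on the opposite strand. Stat2 held 1 match, 222 bases before its start, also on the opposite strand. Bst2 alone held a GAS, which overlaps the first of its 2 ISRE cores and is found in 9.55% of genes. The CTCF core was found in 0 of the 8 matched genes and in 3.96% of all genes. Irf7, Irf9 and Oasl2 held none of the 3 motifs in these windows, which says only that these letters are not there.

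Which genes had a row in the tables differed by role. Isg15, Usp18, Ifit1 and Ifit3 had no row in the tables used here. Oasl2 had a row only in the serum table, and Irf7 only in the hairpin table. The rule by which rows entered a table is not given in the sources used here; the lowest maximum of a row was 5.42 to 8.58 normalised counts, depending on the table, so a gene without a row may lie under such a level, which was not tested. For scale, 67.6% of the 21951 protein-coding genes of the GENCODE M21 annotation had a row in at least 1 table.

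Around these genes, 99 other genes of the pathway were followed in lists by role. Of the 11 interferon ligand genes (Ifnb1, Ifng, Ifne and others), 0 had a row in any table. All 9 receptor and kinase genes (among them Ifnar1, Ifnar2, Jak1 and Tyk2) had a row in all 5. So did 9 of 10 negative regulators, 8 of 12 RNA and DNA sensors and their adaptors, and 4 of 6 other transcription factors, against 54.1% of protein-coding genes. Of 48 other interferon-stimulated genes, 37 had a row in at least 1 table and 18 in all 5; Mx1, Mx2, Ifi44 and Rtp4 were among the 11 without one. The bar chart of rows by role shows these counts.

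**Figure D1:**
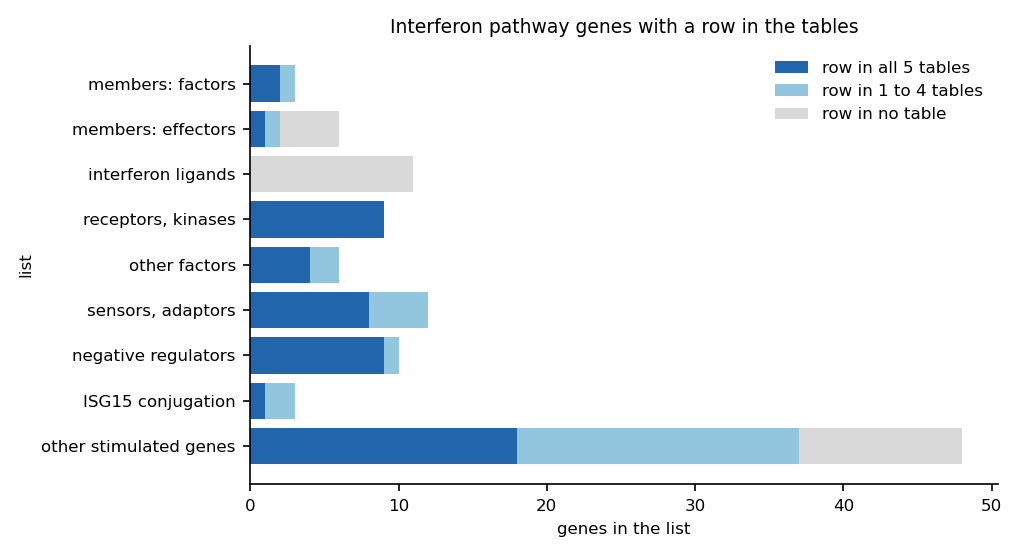
Number of genes (horizontal axis) in each list by role (vertical axis), split into genes with a row in all 5 tables (dark blue), in 1 to 4 tables (light blue) and in no table (grey). The 9 receptors and kinases are in all 5 tables and the 11 ligands are in none, and 4 of the 6 member effectors have no row.

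Libraries totalled 15364584 to 19642332 counts after normalisation, which was done separately for each table, so these totals do not measure depth. Replicates correlated with r from 0.983 to 0.992 across genes. The cells carried the markers of their label: all 10 pluripotency markers (Pou5f1, Nanog, Sox2 and others) had a row in every table, with a summed level of 75902 to 137943. Of 10 immune cell markers, Ptprc, Adgre1, Csf1r, Tyrobp and Fcer1g had no row, and the rest summed to 205 to 483. The Chd4 hairpin libraries had 3379 and 3729 normalised counts of Chd4 against 9923 and 9526 with the control hairpin. Ctcf RNA was 9275 to 9712 in cells overexpressing wild-type or mutated CTCF without IAA against 4134 and 4332 in their control. A degron acts on protein, so the Ctcf and Rad21 RNA of the other tables does not check it.

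Irf9 encodes the DNA-binding subunit of the ISRE complex and lies at 14:55603571-55610030 on the plus strand of GRCm38, where its exons overlap those of Rnf31 on the same strand. Reads of the shared exon cannot be told apart in these values, so Irf9 is uncertain to that extent. In the CTCF table Irf9 had 239 and 240.3 normalised counts at 0 h, 374 and 309 at 12 h, and 370.1 and 359 at 24 h. Both 0 h libraries were lower than all 4 treated ones. Irf9 had 120.0 and 125 at 0 h, 135 and 124 at 12 h and 148 and 145 at 24 h of RAD21 degradation, where 12 h overlapped 0 h. In serum it had 126 and 139.9 at 0 h and 111 and 129 at 12 h, which overlap.

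In the hairpin table Irf9 had 277 and 262 normalised counts with the control hairpin and 302 and 305 with the Chd4 hairpin. In overexpression control cells Irf9 had 265 and 237 without IAA and 355 and 330.4 with it. With wild-type CTCF it had 278 and 271 without IAA and 362 and 314 with it, and with mutated CTCF 325 and 326 without and 308 and 364 with it. Control and wild-type cells with IAA lay above the same cells without it, while the mutated CTCF groups overlapped.

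Stat2, which encodes the STAT that joins IRF9, lies at 10:128270559-128292849 on the plus strand, with no exon of another gene over its own. In the CTCF table it had 584 and 608 normalised counts at 0 h, 551 and 520.4 at 12 h and 367 and 492 at 24 h, so the 3 times did not overlap and lay in descending order. It had 1054 and 1001 at 0 h, 1159 and 1155 at 12 h and 941 and 1151 at 24 h of RAD21 degradation, where the 24 h libraries spanned the 0 h ones. In serum Stat2 had 391 and 321 at 0 h and 199 and 232 at 12 h.

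With the control hairpin Stat2 had 1060.4 and 1007 normalised counts, and with the Chd4 hairpin 471 and 433. In overexpression control cells it had 713 and 734 without IAA and 639 and 569 with it. With wild-type CTCF it had 829 and 721 without and 717 and 682 with IAA, and with mutated CTCF 711 and 679 without and 491 and 449 with it. Of the 12 overexpression libraries, the 2 with mutated CTCF and IAA were the lowest.

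Bst2, the tetherin gene, lies at 8:71534255-71537456 on the minus strand, with no exon of another gene over its own. It had 198 and 176 normalised counts at 0 h, 236 and 246 at 12 h and 305 and 271 at 24 h in the CTCF table, in ascending order with no overlap. In the RAD21 table it had 506 and 620.0 at 0 h, 624 and 582 at 12 h and 900.1 and 862 at 24 h, so 24 h stood apart and the other times overlapped. In serum Bst2 had 453 and 444 at 0 h and 589 and 564 at 12 h.

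Bst2 had 63.8 and 91.6 normalised counts with the control hairpin and 290.2 and 300.0 with the Chd4 hairpin. In overexpression control cells it had 115 and 102 without IAA and 118 and 125 with it. It had 74.9 and 76.2 without and 94.5 and 72.1 with IAA in cells with wild-type CTCF, and 70.2 and 80.8 without and 95.8 and 59.7 with IAA in cells with mutated CTCF. All 8 libraries with added CTCF were lower than the 4 control ones.

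**Figure D2:**
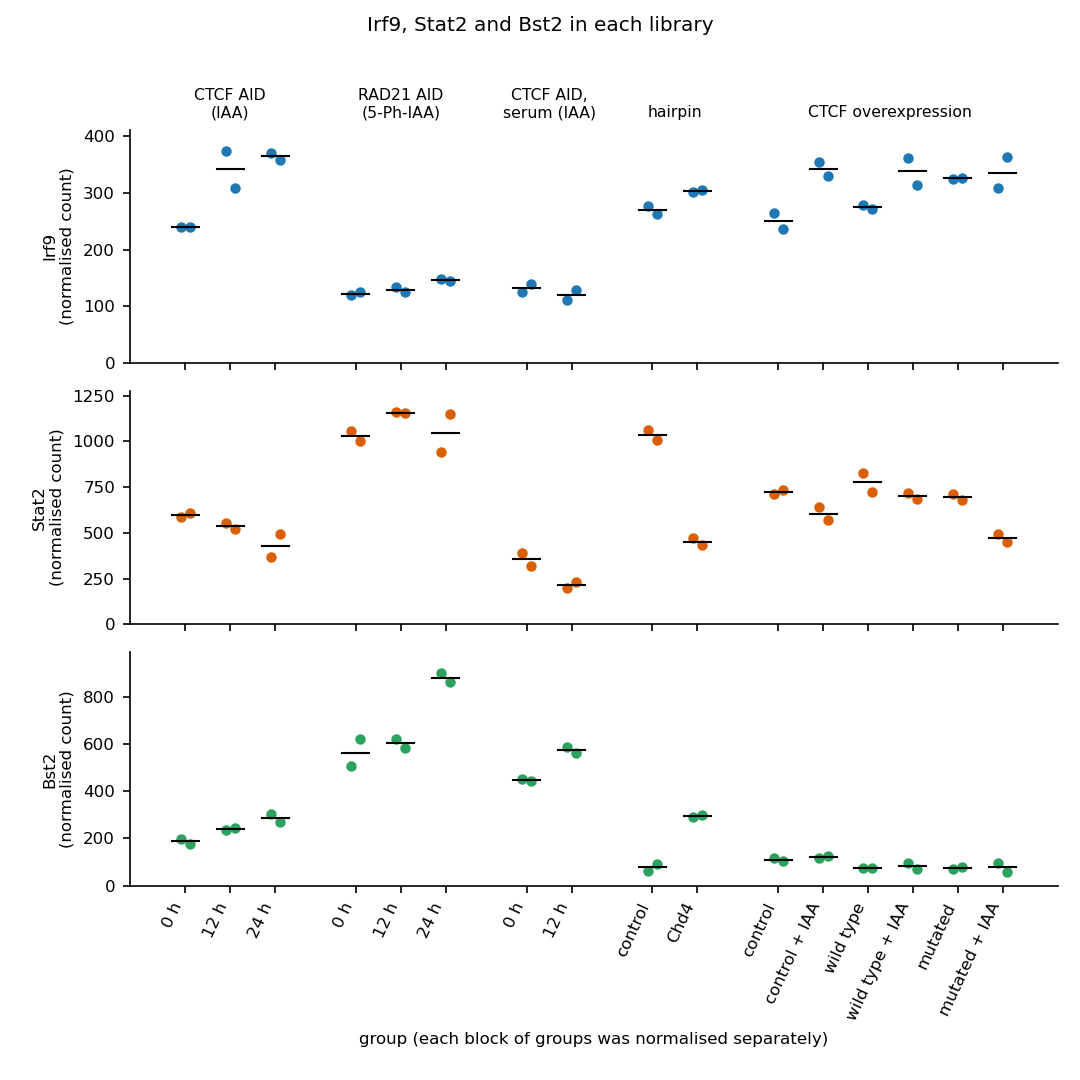
Normalised counts (vertical axes, from 0) of Irf9, Stat2 and Bst2 in each of the 32 libraries (points) with the mean of each group (black line); the 5 blocks of groups were normalised separately. The Chd4 hairpin lowers Stat2 from 1060.4 and 1007 to 471 and 433, while Bst2 goes from 63.8 and 91.6 to 290.2 and 300.0.

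Irf7, which encodes the factor that amplifies interferon production, lies at 7:141262706-141266481 on the minus strand, where an exon overlaps Phrf1 on the opposite strand. It was listed at 0 in both control hairpin libraries and had 22.7 and 27.2 normalised counts with the Chd4 hairpin. Oasl2 (5:114896936-114912234, plus strand) had 5.55 and 2.28 at 0 h and 9.87 and 7.92 at 12 h of IAA in serum, which do not overlap. Its mean was under the minimum of 10 for testing.

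Per kilobase of exon the untreated CTCF AID cells had 207 normalised counts of Bst2, 101 of Stat2 and 44.5 of Irf9, as group means. The same order held in untreated RAD21 AID cells, with 624, 173 and 22.7, and in serum, with 497, 60.0 and 24.7. In control hairpin cells the order was Stat2 with 174, Bst2 with 86.0 and Irf9 with 50.1. In untreated overexpression control cells Stat2, with 122, and Bst2, with 121, were alike, above Irf9 with 46.5. Levels set across tables rest on separate normalisations and were not tested.

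Within each table, limma was fitted to log2(value + 1) of the genes with a mean of at least 10. A call is an adjusted p under 0.05, by the Benjamini-Hochberg method over the whole table. Every log2 difference below is on that scale, which understates changes of low genes. An exact permutation test of 2 libraries against 2 cannot give a two-sided p under 0.333, so single values carry no such test. In these bulk samples fewer cells with a transcript and less transcript per cell cannot be told apart.

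The first comparison asks how transcript levels differ between CTCF AID cells with and without IAA. The part of IAA itself, apart from CTCF loss, in these differences was not tested. After 12 h of IAA, 1 of the 3 members tested was called, against 17.8% of the 13699 genes tested. Irf9 rose by 0.50 on the log2 scale (SE 0.12, limma adjusted p = 0.0324), or 1.42-fold. Bst2 was 0.37 higher (SE 0.13, limma adjusted p = 0.0996) and Stat2 differed by -0.15 (SE 0.14, limma adjusted p = 0.505), neither of them called. The call of Irf9 was lost without either 0 h library or without the first 12 h library, at differences of 0.36 to 0.50.

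After 24 h all 3 members tested were called, against 22.5% of genes. Irf9 rose by 0.60 (SE 0.12, limma adjusted p = 0.0142) and Bst2 by 0.62 (SE 0.13, limma adjusted p = 0.0156), and Stat2 fell by 0.49 (SE 0.14, limma adjusted p = 0.0459). The partners in 1 DNA-binding complex, Irf9 and Stat2, thus had differences of opposite sign. None of the 3 calls held without the second 0 h library or without the first 24 h library, and only that of Bst2 held without the first 0 h library. Stat2 was at -0.28 without the first 24 h library. Between 12 h and 24 h limma called 0 of the 3, against 0.146% of genes; 1 of them, Stat2, had an unadjusted p under 0.05, with a difference of -0.33 (SE 0.14). Marker sums moved beside these calls: the 5 of 10 primitive endoderm markers with a row summed to 1922 and 1777 at 0 h, 2299 and 2224 at 12 h and 2928 and 3288 at 24 h. The 4 of 10 fibroblast markers with a row summed to 330 and 347, then 157 and 152, then 137 and 146. The 10 pluripotency markers summed to 104601 and 103803, then 101562 and 101562, then 98530 and 98936.9. The part of these marker shifts in the differences of the members was not tested.

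Among the 64 other pathway genes tested in the CTCF table, 9 rose and 9 fell at 12 h, against 9.39% and 8.40% of all genes tested, with a median difference of -0.07 against 0.0005. Of receptors and kinases, Jak1 rose by 0.22 (SE 0.05), and Jak2, which serves the type II interferon receptor, fell by 0.82 (SE 0.15). Il10rb, a receptor chain shared by interferon lambda and interleukins, fell by 1.56 (SE 0.40). Its exons, like those of Ifnar2, overlap Gm21970 on the same strand, so reads could be split between them. Of the other transcription factors Irf5 had 102 and 279.8 normalised counts at 0 h and 9.06 and 7.90 at 12 h. Irf8 had 31.7 and 42.1 and then 0 and 1.26. Both fell, and an exon of Irf5 overlaps Tnpo3 on the opposite strand. Irf8 passed the filter only through the group where it was high, and its fitted difference depends on the pseudocount. Of the sensors, Ddx58 (RIG-I, which detects viral RNA) rose by 1.02 (SE 0.16), from 127 and 109.9 to 235 and 246 normalised counts. Socs3, a feedback inhibitor of JAK kinases, rose by 0.33 (SE 0.06). Without any 1 of the 4 libraries 7 or 8 pathway genes were called, against 18 with all of them.

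Of the other interferon-stimulated genes, 5 of 28 tested rose and 4 fell at 12 h, against 9.39% and 8.40% of all genes tested. Ifitm1, a membrane protein that blocks virus entry, rose by 1.23 (SE 0.05), from 813 and 800.5 to 1932 and 1859.6 normalised counts. Its neighbour in function, Ifitm3, fell by 0.66 (SE 0.08), from 1039 and 1082 to 705 and 639. Irgm1, an interferon-induced GTPase, rose by 1.14 (SE 0.27), while Tap1, a peptide transporter for antigen presentation, fell by 0.82 (SE 0.21). The Ifitm genes are near-identical in part, so reads could be split between them, and all of these calls are of limma.

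At 24 h of CTCF degradation 12 of the 64 rose and 13 fell, against 11.7% and 10.8% of all genes tested, with a median of -0.04 against 0.0024. Ifitm1 was at 2789 and 2706 normalised counts and rose by a further 0.54 (SE 0.05, limma adjusted p = 0.0337) from 12 h. It was the only 1 of the 64 called between the 2 times, against 0.146% of all genes tested. That call was lost without any 1 of the 4 libraries, at differences of 0.51 to 0.56. Samd9l, an antiviral factor, rose by 1.86 (SE 0.42), and Helz2, a helicase, fell by 1.90 (SE 0.43). Oasl1, a relative of Oasl2, fell by 1.15 (SE 0.25), from 63.7 and 72.6 to 28.1 and 32.3. Ifngr2, the second chain of the type II receptor, rose by 0.92 (SE 0.21), and Ifnar2, a chain of the type I receptor, fell by 0.62 (SE 0.17). The count was 8 to 20 when 1 library was left out, against 25 with all of them.

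RAD21 degradation addresses the same question for cohesin, in RAD21 AID cells with and without their auxin, whose own part was likewise not tested. After 12 h limma called 0 of the 3 members tested, against 13.0% of the 13738 genes tested, and 0 had an unadjusted p under 0.05. The 95% interval of the difference was -0.26 to 0.42 for Irf9, -0.06 to 0.40 for Stat2 and -0.15 to 0.36 for Bst2. After 24 h Bst2 rose by 0.65 (SE 0.11, limma adjusted p = 0.0115), or 1.57-fold, the single call among the 3 members, against 13.7% of genes. From 12 h to 24 h Bst2 rose by 0.55 (SE 0.11, limma adjusted p = 0.0176), again 1 of 3, against 15.9% of genes. The interval at 24 h against 0 h was -0.08 to 0.60 for Irf9 and -0.21 to 0.25 for Stat2. The 24 h call of Bst2 was lost without the first 24 h library, at a difference of 0.62 with a limma adjusted p of 0.0590. The call between 12 h and 24 h was lost without any 1 of its 4 libraries, at 0.50 to 0.60. The 7 of 10 primitive endoderm markers with a row summed to 2052 and 2170 at 0 h, 2075 and 2593 at 12 h and 3169 and 3109 at 24 h, and their part in the rise of Bst2 was not tested. A difference between CTCF and RAD21 degradation was not tested, since the tables were normalised separately.

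Of 59 other pathway genes tested in the RAD21 table, 6 rose and 0 fell at 12 h, against 6.66% and 6.35% of all genes tested, with a median of 0.11 against -0.0006. They were Tap1, Ddx58, Jak1, Socs3, Trim25 and Ifitm2. Ddx58 went from 71.4 and 59.0 to 116 and 115 normalised counts and rose by 0.82 (SE 0.19), and Jak1 rose by 0.42 (SE 0.06). At 24 h 3 rose and 5 fell, against 6.54% and 7.16%, with a median of 0.15 against 0.0007. Ddx58 was still 0.89 higher (SE 0.19, limma adjusted p = 0.0269). Oas1a, a synthetase that activates RNase L, fell by 0.62 (SE 0.09), from 407 and 429 to 270.3 and 273, and its reads could be split with its near copies. Phf11d fell by 0.55 (SE 0.11) and Dtx3l, a ubiquitin ligase, by 0.53 (SE 0.13). Between 12 h and 24 h 1 rose, Ifitm1, and 8 fell, against 7.67% and 8.26% of all genes tested, with a median of -0.04 against 0.0013; Jak1 and Socs3, higher at 12 h, were among the 8. When 1 library was left out, 0 to 3 genes were called at 12 h, against 6 with all, 1 to 3 at 24 h, against 8, and 0 to 3 between the times, against 9.

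In serum, IAA for 12 h changed 2 of the 3 members tested, against 17.0% of the 14494 genes tested. Stat2 fell by 0.72 (SE 0.13, limma adjusted p = 0.0116), to 0.609 of its level. Bst2 rose by 0.36 (SE 0.07, limma adjusted p = 0.0166). Irf9 was not called, with a difference of -0.15 and a 95% interval of -0.50 to 0.20. Both calls were lost without either 12 h library, at differences of -0.83 to -0.61 for Stat2 and 0.33 to 0.39 for Bst2. The 10 pluripotency markers summed to 86416 and 86706.8 at 0 h and 75901.8 and 77158.5 at 12 h. The 7 of 10 trophoblast markers with a row summed to 1491.59 and 1421.81 and then to 1571.87 and 1646.57. The part of these shifts in the differences of the members was not tested.

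Of 59 other pathway genes in serum, 8 rose and 5 fell, against 7.73% and 9.25% of all genes tested, with a median of 0.07 against -0.0002. Parp12 and Parp14, interferon-induced members of the ADP-ribosyltransferase family, rose by 0.88 (SE 0.11) and 0.86 (SE 0.10). Irgm1 rose by 1.54 (SE 0.33), from 10.3 and 8.95 to 31.7 and 28.0 normalised counts, and passed the filter only through the group where it was high. Ifit2, a relative of Ifit1 and Ifit3, fell by 0.83 (SE 0.19), from 126 and 172 to 87.7 and 77.3. Ifitm3 fell by 0.40 (SE 0.05) and Ifitm1 by 0.31 (SE 0.04). Jak1 rose by 0.34 (SE 0.07). Between 4 and 10 genes were called when 1 library was left out, against 13 with all of them.

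The Chd4 hairpin gave the largest differences of Stat2 and Bst2 among the 19 comparisons. Of the 4 members tested 3 were called, against 67.4% of the 15499 genes tested, a background so high that this count says little about the members. Stat2 fell by 1.19 (SE 0.08, limma adjusted p = 2.85e-05), to 0.437 of its level, and Bst2 rose by 1.93 (SE 0.20, limma adjusted p = 0.000170), or 3.82-fold. Irf7 was called higher (limma adjusted p = 0.000225), but its fitted difference depends on the pseudocount because both controls are listed at 0, and it passed the filter only through the group where it was high. Irf9 differed by 0.17 (SE 0.10, limma adjusted p = 0.186; 95% interval -0.08 to 0.42). The calls of Stat2 and Bst2 held without any 1 of the 4 libraries.

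Marker sums moved with the Chd4 hairpin. The 10 pluripotency markers, all with a row, summed to 137943 and 136279 with the control hairpin and 84665 and 85984 with the Chd4 hairpin. Of the 10 fibroblast markers 6 had a row, and they summed to 497 and 406 and then to 1171 and 1262. The 9 of 10 primitive endoderm markers with a row summed to 2023 and 2209 and then to 2831 and 2679, and the 6 of 10 trophoblast markers with a row to 1949 and 2004 and then to 2352 and 2509. Immune cell markers, 5 of 10 with a row, summed to 305 and 281 and then 251 and 282, with Ptprc and Csf1r absent. The part of these shifts in the differences of Stat2, Bst2 and Irf7 was not tested.

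Of 70 other pathway genes tested with the Chd4 hairpin, 22 rose and 26 fell, against 33.5% and 33.8% of all genes tested, with a median of 0.04 against 0.0062. Among receptors and kinases 2 rose and 6 of 9 fell: Ifngr2 fell by 1.76 (SE 0.53), Il10rb by 1.39 (SE 0.24) and Ifnlr1, the lambda receptor chain, by 1.32 (SE 0.15). Among the other transcription factors Irf5 and Irf8 rose and Irf3 fell. Of sensors and adaptors, Ikbke, a kinase that activates IRF factors, rose by 2.76 (SE 0.50), Zbp1, a sensor of Z-form nucleic acids, by 1.82 (SE 0.42) and Sting1, the adaptor of DNA sensing, by 1.34 (SE 0.17). Mavs, the mitochondrial adaptor of RIG-I, fell by 1.11 (SE 0.08). Single libraries moved some of these sizes: with 1 left out Ikbke was at 1.92 to 3.60 and Ifngr2 at -2.58 to -0.95.

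Of 33 other interferon-stimulated genes tested, 9 rose and 14 fell with the Chd4 hairpin, against 33.5% and 33.8% of all genes tested. Ifitm3 fell by 3.74 (SE 0.12), from 1984 and 1901 to 129.5 and 162 normalised counts, and Ifitm1 by 1.47 (SE 0.07), from 1957 and 1893 to 659.9 and 728. Ifit2 fell by 2.27 (SE 0.54; -3.08 to -1.46 with 1 library left out). Parp12 rose by 1.77 (SE 0.07), from 506 and 477 to 1635 and 1722. Cxcl10, a chemokine, had 3.22 and 3.39 normalised counts in the control and 35.1 and 38.4 with the Chd4 hairpin. Trim30a had 0.871 and 0 and then 44.4 and 31.4. Both genes passed the filter only through the group where they were high, and the fitted difference of Trim30a depends on the pseudocount. Ube2l6, the conjugating enzyme for ISG15, rose by 1.96 (SE 0.28), and Nlrc5, a regulator of class I antigen presentation genes, by 3.00 (SE 0.50; 2.22 to 3.78 with 1 library left out), both from values under 18 in the controls. Over all lists 31 to 46 genes were called without 1 of the libraries, against 48 with all of them.

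**Figure D3:**
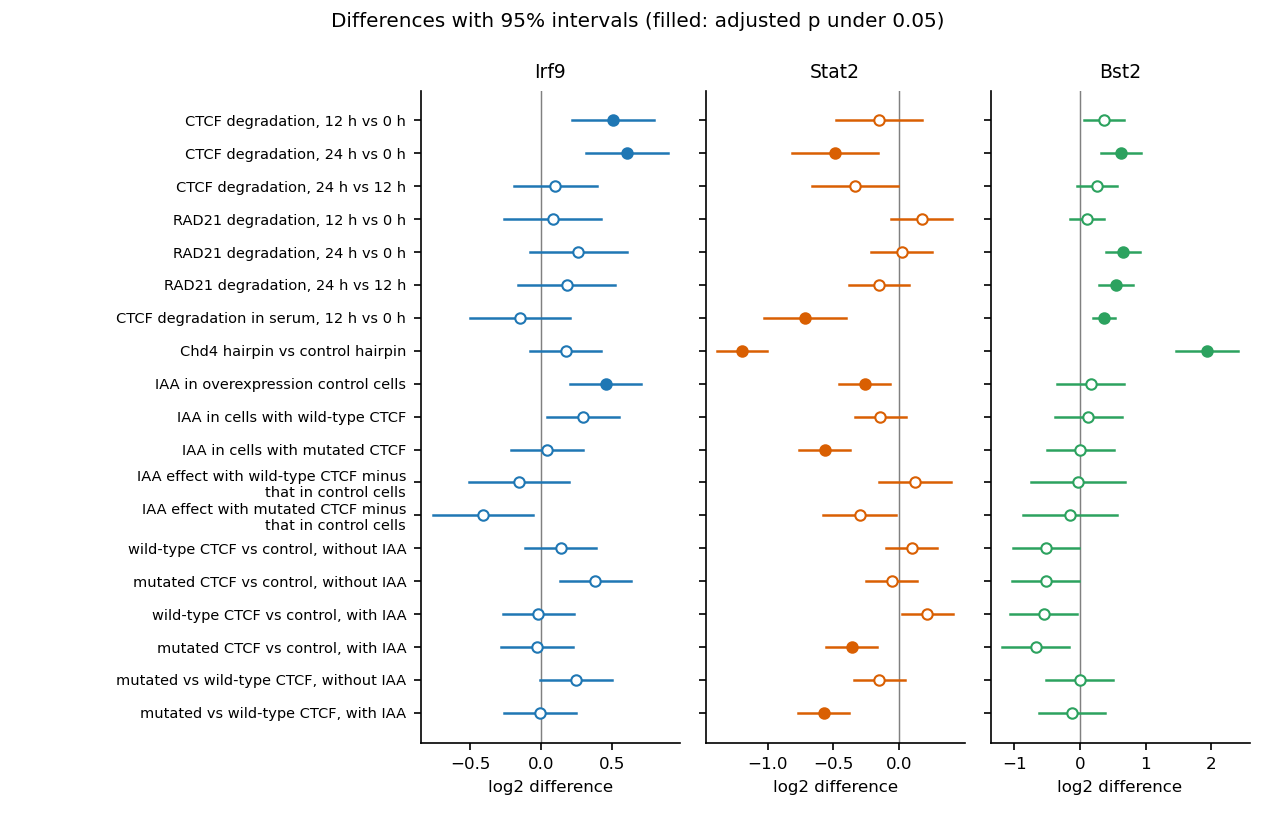
Log2 differences (horizontal axes, on the log2(value + 1) scale) of Irf9, Stat2 and Bst2 with 95% intervals in 19 comparisons (vertical axis); filled points have a limma adjusted p under 0.05. Filled Stat2 points are all below 0, from -1.19 to -0.26, and filled Irf9 and Bst2 points are all above 0.

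Overexpression asks whether added CTCF changes the response to IAA. In control cells IAA changed 2 of 3 members, against 25.3% of the 13938 genes tested: Irf9 rose by 0.45 (SE 0.11, limma adjusted p = 0.0146) and Stat2 fell by 0.26 (SE 0.09, limma adjusted p = 0.0497). Bst2 was not called (0.16, 95% interval -0.35 to 0.67). Leaving out either library without IAA, or the second with IAA, ended the call of Stat2, which was then at -0.28 to -0.18. Leaving out the second library without IAA or the first with IAA ended that of Irf9, then at 0.37 and 0.40.

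With wild-type CTCF limma called 0 of 3 members for IAA, against 21.4% of genes, and 1 had an unadjusted p under 0.05, Irf9, at 0.29 (95% interval 0.04 to 0.54). Stat2 was at -0.14 (95% interval -0.34 to 0.05). By their treatment label, both wild-type libraries titled as with IAA lacked it, so that this comparison has no treated group under the labels. With mutated CTCF 1 of 3 was called, against 16.2% of genes: Stat2 fell by 0.57 (SE 0.09, limma adjusted p = 0.00155), to 0.676 of its level. That call held without any 1 of the 4 libraries. By their treatment label, however, both libraries titled as without IAA had it, so that this comparison has no untreated group under the labels. Irf9 was at 0.04 (95% interval -0.21 to 0.29) and Bst2 at 0.01 (95% interval -0.50 to 0.51).

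The difference of the IAA effects was tested as an interaction. For wild-type CTCF against control limma called 0 of 3 members, against 1.41% of genes, with 0 at an unadjusted p under 0.05. The interval was -0.51 to 0.20 for Irf9, -0.16 to 0.39 for Stat2 and -0.75 to 0.68 for Bst2. For mutated CTCF against control limma called 0 of 3, against 1.64% of genes, with 2 at an unadjusted p under 0.05. These were Irf9, with a difference of the IAA effects of -0.41 (SE 0.16, limma adjusted p = 0.315), and Stat2, with -0.30 (SE 0.12, limma adjusted p = 0.350). The IAA effects on Irf9 and Stat2 are thus not shown to differ between control cells and cells with added CTCF. Both interactions share the control libraries, and neither can be fitted with groups by the treatment label.

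Between cells without IAA limma called 0 of 3 members for wild-type CTCF against control, against 0.897% of genes, with 1 at an unadjusted p under 0.05. It called 0 of 3 for mutated CTCF against control, against 5.55%, with 2 at that level, and 0 of 3 for mutated against wild-type CTCF, against 6.23%, with 0. Bst2 differed by -0.52 in each of the first 2 (SE 0.23; limma adjusted p = 0.392 and 0.228), and Irf9 by 0.38 with mutated CTCF (SE 0.11, limma adjusted p = 0.0837). With IAA limma called 0 of 3 for wild-type CTCF against control, against 6.26%, with Stat2 (0.21, SE 0.09) and Bst2 (-0.55, SE 0.23) at an unadjusted p under 0.05. Mutated CTCF against control called 1 of 3, against 6.50%: Stat2 was lower, by -0.36 (SE 0.09, limma adjusted p = 0.0360). Mutated against wild-type CTCF with IAA also called 1 of 3, against 2.25%: Stat2 was lower, by -0.57 (SE 0.09, limma adjusted p = 0.00892). These comparisons share libraries. Libraries with conflicting labels enter them, except wild-type CTCF against control without IAA and mutated CTCF against control with IAA.

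The call of Stat2 for mutated CTCF against control with IAA was lost without any 1 of its 4 libraries, at -0.44 to -0.28. Without the first library of mutated CTCF with IAA, Bst2 was called in that comparison instead, at -1.01 (limma adjusted p = 0.0431). The call of Stat2 for mutated against wild-type CTCF was lost without either wild-type library or the second mutated one, at -0.61 to -0.51. Grouping the 4 conflicting libraries by their treatment label ended the calls of Irf9 (limma adjusted p = 0.123) and Stat2 (limma adjusted p = 0.418) for IAA in control cells, with the differences unchanged. Under that grouping Stat2 with mutated CTCF and IAA differed from control by -0.08 (limma adjusted p = 0.875).

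Of 60 other pathway genes tested in the overexpression table, 9 rose and 7 fell with IAA in control cells, against 12.8% and 12.5% of all genes tested, with a median of 0.09 against -0.0021. Dtx3l and its partner Parp9, whose exons overlap on opposite strands, rose by 1.05 (SE 0.09) and 1.07 (SE 0.15). Jak2 fell by 1.22 (SE 0.17), Ddx58 by 0.55 (SE 0.12) and Ifitm3 by 0.48 (SE 0.05), while Socs3 rose by 0.68 (SE 0.06). Ifitm1 rose by 0.62 (SE 0.04). By the treatment labels, the wild-type comparison lacks a group with IAA and the mutated one a group without it. With wild-type CTCF 12 rose and 0 fell, against 11.1% and 10.3%, with a median of 0.13 against -0.0045. Among them were Irgm1, by 1.39 (SE 0.29), and Socs3, by 0.42 (SE 0.06). Tdrd7, also among them, had 1.58 and 0.831 normalised counts without IAA and 59.2 and 23.8 with it. Its fitted difference depends on the pseudocount. With mutated CTCF 7 rose and 4 fell, against 8.31% and 7.92%, with a median of 0.10 against -0.0038: Ddx58 fell by 1.08 (SE 0.12), from 521 and 476 to 250.5 and 219.7, and Cgas, the DNA sensor that feeds Sting1, rose by 0.88 (SE 0.27). With 1 library left out 13 to 15 genes were called in control cells, 7 to 12 with wild-type and 6 to 10 with mutated CTCF, against 16, 12 and 11 with all.

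Without IAA limma called 0 of the 60 for wild-type CTCF against control, against 0.897% of all genes tested. Mutated CTCF had 4 called higher and 1 lower, against 3.31% and 2.24%, and 0 or 1 when 1 library was left out: Ddx58 rose by 0.50 (SE 0.12), Dtx3l by 0.38 (SE 0.09), Oas1a by 0.29 (SE 0.07) and Xaf1 by 0.27 (SE 0.07), and Parp12 fell by 0.50 (SE 0.11). With IAA wild-type CTCF cells had 6 called higher and 3 lower than control, against 3.98% and 2.27% of all genes, and 4 or 5 in all when 1 library was left out: Jak2 was among the former, by 0.74 (SE 0.17), and Jak1 was lower, by -0.28 (SE 0.05). Against 4.16% and 2.34% of all genes, mutated CTCF cells with IAA had 2 higher, among them Ifitm3 (0.29, SE 0.05), and 2 lower, Dtx3l (-0.36, SE 0.09) and Jak1 (-0.29, SE 0.05).

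**Figure D4:**
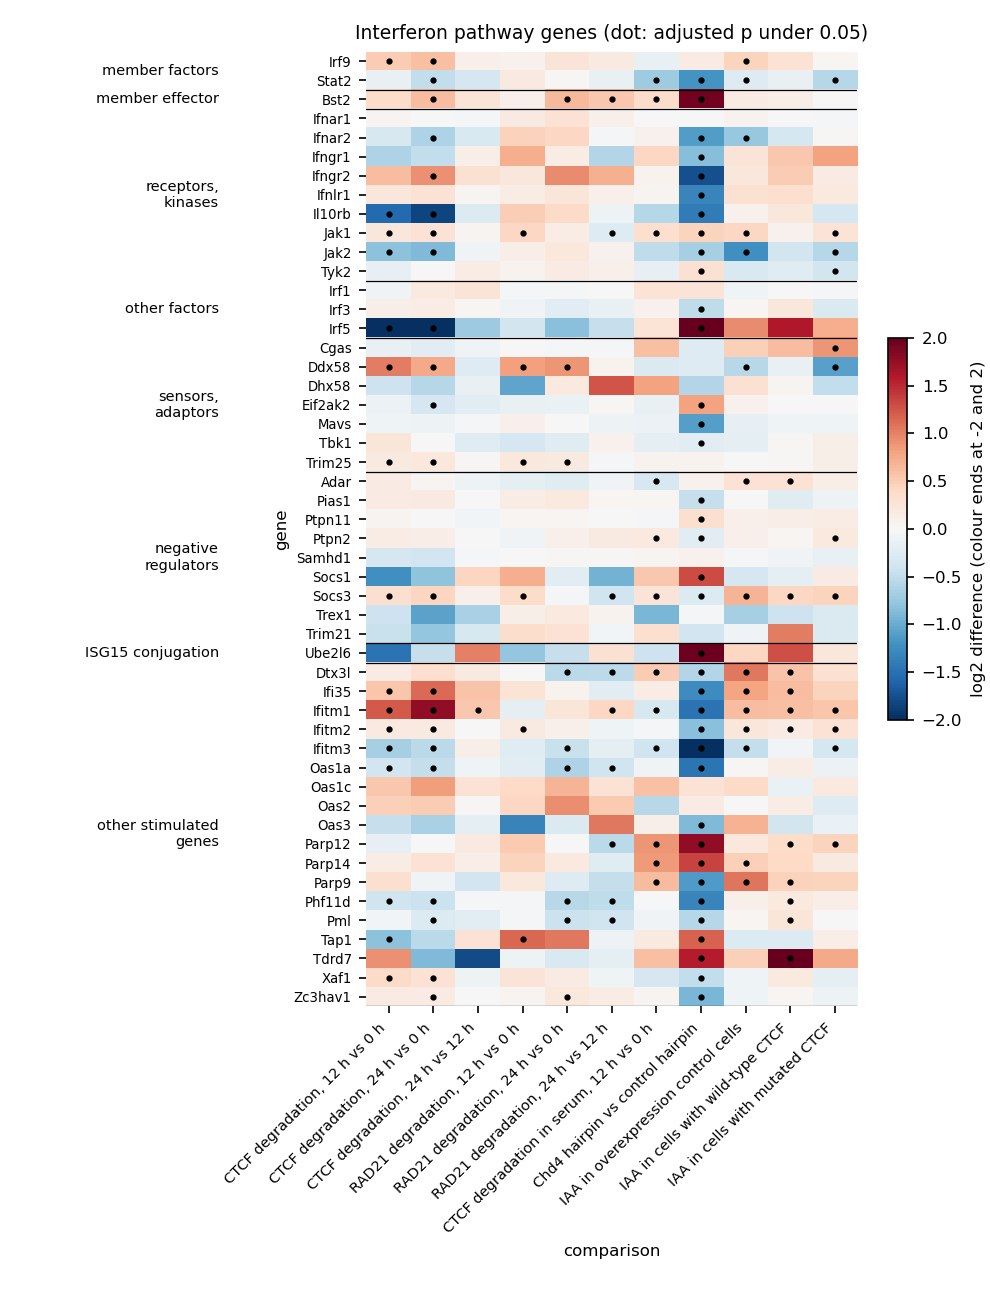
Log2 differences (colour, red higher and blue lower, ending at -2 and 2) of 50 interferon pathway genes tested in all 5 tables (rows, grouped by role) in 11 comparisons (columns); dots mark a limma adjusted p under 0.05. In the column of the Chd4 hairpin Bst2 is at 1.93 and Ifitm3 is past the end of the scale at -3.74. Only the list of member effectors, which holds Bst2 alone here, is of 1 colour across the columns drawn, with Bst2 at 0.01 to 1.93 and not called in all of them. Comparisons of added CTCF with control are not drawn, and there Bst2 was at -0.68 to -0.52, not called.

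The 3 members tested in all tables did not move as 1 block. Over the 16 group means of log2(value + 1), each centred on its table, Pearson's r was -0.40 between Irf9 and Stat2, 0.34 between Irf9 and Bst2 and -0.71 between Stat2 and Bst2. Without the hairpin table (14 group means) the last was -0.34. These are descriptions: group means of a table share their centring, and no p is given. The genes whose pattern was most like the mean of the 3 members over 16 group means, among 11439 candidates, were Fam219b (r = 0.869), Tnpo2 (0.847), Camsap1 (0.837), Hook3 (0.825) and Kansl2-ps (0.787). Without the hairpin table they were Orai3 (0.912), Tnpo2 (0.895), Pex26 (0.887), Hook3 (0.862) and Fam219b (0.862). None of these is in the pathway lists used here.

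The nearest genes on either side that were tested in all tables give the chromosomal setting. Rnf31, which overlaps Irf9, was called only with the Chd4 hairpin, where it was lower, by -0.75 (SE 0.15). It was at 0.06 (SE 0.12) and 0.12 (SE 0.12) at 12 h and 24 h of CTCF degradation, where Irf9 rose. For IAA in control cells, where Irf9 was at 0.45, Rnf31 was at 0.49 (SE 0.17, limma adjusted p = 0.0589). For IAA with wild-type CTCF Irf9 and Rnf31 were at 0.29 and 0.28, and with mutated CTCF at 0.04 and -0.03. The part of the shared exon in the Irf9 values was not tested. Rec8, 8007 bases beyond Irf9, was not called at 12 h or 24 h of CTCF degradation. Timeless, 17618 bases before Stat2, fell with Stat2 at 24 h of CTCF degradation (-0.29, SE 0.07) and with the Chd4 hairpin (-0.67, SE 0.06), and also at both times of RAD21 degradation, where Stat2 was not called. Where Stat2 was lower elsewhere Timeless was not called: it was at -0.06 in serum, 0.0004 for IAA in control cells, -0.09 for IAA with mutated CTCF, and -0.03 and -0.01 for mutated CTCF with IAA against control and wild-type. Il23a, 3290 bases beyond Stat2, fell with the Chd4 hairpin (-3.07, SE 0.46) and was called in no other comparison. Of the neighbours of Bst2, Gtpbp3 rose in serum (0.49, SE 0.09), as Bst2 did, but was not called where Bst2 rose elsewhere: it was at 0.19 at 24 h of CTCF degradation, -0.02 at 24 h of RAD21 degradation against both earlier times, and 0.15 with the Chd4 hairpin. Mvb12a, 5466 bases away, was not called in any of the comparisons where Bst2 was, with -0.07 (SE 0.14) for the Chd4 hairpin.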

How the data were processed

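PolyA RNA of 32 E14 libraries was sequenced, and the data used here are 5 tables of normalised counts, a signal per gene and library that is never negative, as deposited by the authors. Per the submitters' processing notes, the processing used Trim Galore, Bowtie2, STAR, RSEM, DESeq2 and mm10, with roles and versions not given in the sources used here. No common step that would turn low values into whole reads was found (coherence 0.279 to 0.510), so no count test was run, and the depth behind a value is unknown. The last line of the CTCF table is incomplete, and that 1 line was dropped.

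The test was limma 3.58.1 (R 4.3.3) with an eBayes mean trend on log2(value + 1), with all groups of a table in 1 fit, which pools the spread of 2 libraries a group; 19 comparisons were made, none across tables. The fit was first tested on simulated data with a fixed spread, not that of these libraries. Of 2-fold changes 77.3% to 88.8% were called in the right direction, depending on the table. Of 1.5-fold changes only 28.1% to 52% were, so a change of that size could go uncalled. Positions and exon lengths are GENCODE M21 on GRCm38. Strand use in counting is not given in the sources used here. Exons of other pathway genes named above, among them Jak1, Tap1, Ikbke, Nlrc5 and Cxcl10, overlap another gene on the opposite strand.

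The members and lists were chosen with earlier results of these data known. One gene of the role lists is counted in them but not reported here by name. All members are named, and of each role list at most 3 called genes per direction and comparison, by size, with others where a result turns on them, the nearest tested neighbours and the 5 genes most alike. The symbols Cgas and Sting1 replaced older ones in the lists after the tables were read. Alternatives tried were another pseudocount, other filters, only the groups compared, trimmed-mean and quantile scaling, a replicate block, a 2-fold minimum, groups by treatment label, and leaving out each library.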

Additional observations from a re-analysis of the deposited data

Results flagged for a closer look

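For 3 genes of the wider pathway the effect of IAA differed between cells with added CTCF and control cells by the limma interaction: 2 of 60 tested with wild-type CTCF, against 1.41% of all genes, and 1 of 60 with mutated CTCF, against 1.64%, both near that background. When 1 library was left out 0 or 1 gene was called in each. The difference of effects was 0.42 for Ifitm3 (limma adjusted p = 0.0249) and -0.32 for Jak1 (limma adjusted p = 0.0390) with wild-type CTCF, and -0.75 for Dtx3l (limma adjusted p = 0.0177) with mutated CTCF. Neither interaction can be fitted with groups by the treatment label. For 3 other genes limma called a difference with IAA for 12 h in 1 setting of CTCF AID cells and the opposite one in another. The settings were the CTCF table, serum and overexpression control cells, where 17.8%, 17.0% and 25.3% of all genes tested were called. The share of all genes with opposite calls was not counted, so the 3 are not read as a result about the pathway. Differences between settings were not tested, since the tables were normalised separately. Ddx58 was at 1.02 on the log2 scale after CTCF degradation in the CTCF table and at -0.55 in overexpression control cells. Ifitm1 was at 1.23 and 0.62 in these and at -0.31 in serum. Adar, an RNA editing enzyme that dampens RNA sensing, was at -0.33 in serum and 0.29 in overexpression control cells. Groups of 2 libraries are too small for a test of single libraries that stand apart.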

How the results depend on the processing

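No member reversed the sign of a call under the alternatives run; groups by the treatment label were run for 3 comparisons (wild-type CTCF against control without IAA, mutated CTCF against control with IAA, and IAA in control cells). Asking also for a 2-fold difference left 0 members called for CTCF degradation at 12 h and 24 h, RAD21 degradation at 24 h against 0 h and against 12 h, serum, IAA in control cells and in cells with mutated CTCF, and mutated CTCF against control and against wild-type CTCF with IAA; with the Chd4 hairpin Stat2 and Bst2 passed it, while the size of Irf7 depends on the pseudocount. For IAA in control cells 1 member, Irf9, was called with no filter, with trimmed-mean rescaling and with only the groups compared, where Stat2 had a limma adjusted p of 0.0523, 0.0527 and 0.0771, and 0 with groups by the treatment label. For mutated CTCF against control with IAA 0 were called with quantile normalisation, with only the groups compared and with groups by the treatment label, with adjusted p-values of Stat2 of 0.0523, 0.0997 and 0.875. With only the groups compared Stat2 at 24 h of CTCF degradation had a limma adjusted p of 0.0779. Leaving out 1 library gave 0 to 1 calls for CTCF degradation at 12 h, 0 to 3 at 24 h, 0 to 1 for RAD21 degradation at 24 h, 0 between 12 h and 24 h, 0 to 2 in serum, 0 to 1 for IAA in control cells, and 0 to 1 for mutated CTCF against control and against wild-type CTCF with IAA; where 1 library is left in a group, it is assumed to vary like the other groups. The replicate block left the count of members called as it was in all 19 comparisons (3 at 24 h of CTCF degradation and 2 for IAA in control cells, for example); it lowered the count of other pathway genes from 8 to 5 at 24 h of RAD21 degradation, and from 1 to 0 between 12 h and 24 h of CTCF degradation and for mutated against wild-type CTCF with IAA. The labels do not pair the numbers, and deviations of same-numbered libraries correlated at -0.063 to 0.102. Of the other pathway genes, a 2-fold minimum left 6 of 18 called at 12 h and 9 of 25 at 24 h of CTCF degradation, 1 of 6, 0 of 8 and 1 of 9 in the 3 RAD21 comparisons, 1 of 13 in serum, 30 of 48 with the Chd4 hairpin and 5 of 16, 2 of 12 and 1 of 11 for IAA in the 3 overexpression lines. The remaining alternatives gave 12 to 20, 18 to 26, 4 to 6, 5 to 8, 5 to 10, 13, 29 to 51, 4 to 18, 7 to 12 and 7 to 11 in that order. The cause of these changes was not tested, beyond the fewer libraries or stricter rule that each alternative applies by construction. Depth is unknown, so no floor is given for genes without a row.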
